A study of Mus musculus with 20 samples.

Results

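A set of 5 genes, most of them known mainly from tissues other than the liver, was followed through a mouse liver RNA-seq experiment on amino acid-free diets. They are Vmn2r3, Chrna4, Dct, Dlec1 and Fbf1, out of the 46078 genes in the count table. They were chosen by hand for large differences in normalised counts between the diet and genotype groups of these same libraries, so the differences described for them are a description of what they were selected on, and no test is given for them. Among the 14759 genes that passed a filter on low counts, ranked by the range of their 6 group means on the log2 scale, Chrna4 was at place 5, Vmn2r3 at 9, Dlec1 at 71, Fbf1 at 83 and Dct at 122. All 5 passed that filter, which needs a minimum count only in as many libraries as the smallest group holds.

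Livers came from male mice at least 9 weeks old of a mixed 129 and C57BL/6 background. Cse (symbol Cth) encodes cystathionine gamma-lyase, the enzyme that makes cysteine from the methionine side, so that animals without it depend on cysteine in the food. All animals first ate a calorie-restricted control diet for 3 days and then, still calorie-restricted, were kept for 2 days on a defined amino acid diet. The knockout (Cse-/-) groups were 4 livers on the cysteine-free diet, 3 on the tryptophan-free diet and 4 on the tryptophan-free diet with BSO (l-buthionine sulfoximine, an inhibitor of the first step of glutathione synthesis). The control groups were 4 livers on the cysteine-free diet, 3 on the tryptophan-free diet and 2 on the complete control diet. The submitters' labels call the controls WT, while the study's list of mice gives them as heterozygous, and they are written here as Cse+/-. Each library was 1 column of the table and is named by that column's label (av01 to av22). The tryptophan-free diet served as the comparison for the lack of an amino acid other than cysteine.

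Between 11785740 and 57986121 reads were counted on genes in a library, with a median of 15252745. Levels are given in CPM, a counts-per-million value of the TMM-scaled library total. A single read was worth between 0.0174 and 0.09 CPM, and a count of 0 allowed a level of up to 0.0523 to 0.27 CPM, taken as 3 counts, a limit that covers counting error only. Cth itself lay between 6.37 and 14.4 CPM in the 11 Cse-/- libraries and between 88.3 and 332 CPM in the 9 Cse+/- libraries, and the genotypes did not overlap. Library av08, from a Cse-/- liver on the cysteine-free diet, stood apart from the other 3 of its group in several of the results below, and the means of Vmn2r3 and Dct in that group are also given without it. Since whole liver was sequenced, fewer cells of a type and less RNA per cell cannot be told apart in any value below.

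As background, Vmn2r3 belongs to the type 2 vomeronasal receptors, G protein-coupled receptors with which sensory neurons of the vomeronasal organ detect pheromones, and each such neuron uses very few of a large family. Chrna4 encodes the alpha-4 subunit of the neuronal nicotinic acetylcholine receptor, a ligand-gated ion channel that in the brain is mostly built with the beta-2 subunit. Dct, dopachrome tautomerase, is an enzyme of melanin synthesis in pigment cells and a relative of tyrosinase. Dlec1 is named for a deletion in lung and oesophageal cancers and encodes a protein linked to cilia. Fbf1 encodes a protein of the distal appendages, the struts by which the older centriole is anchored to the membrane when a cilium is built.

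The genes lie on 5 chromosomes of the mouse build GRCm38. Vmn2r3 (ENSMUSG00000091572) was annotated at chr3:64257215-64289709 on the minus strand, with 9 transcripts. Chrna4 (ENSMUSG00000027577) was at chr2:181018380-181043546, minus strand, with 5 transcripts. Dct (ENSMUSG00000022129) was at chr14:118012790-118052244, minus strand, with 4 transcripts. Dlec1 (ENSMUSG00000038060) was at chr9:119102478-119148246, plus strand, with 8 transcripts. Fbf1 (ENSMUSG00000020776) was at chr11:116142285-116168166, minus strand, with 12 transcripts. All are protein-coding in GENCODE release M21.

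The promoters of the pair with near on-off counts and of the pigment gene are shown because each was screened for the short binding motifs of factors tied to cysteine, sterols or pigment. Each is the RefSeq window (GRCm38.p6) from 250 bases before to 50 after the start of transcription, read 5′ to 3′ on the gene's own strand, and capitals mark the motif CATGTG or its reverse complement, the core of the M-box bound by the pigment cell factor MITF. The windows are chr3:64287368-64287667 for Vmn2r3, chr2:181039128-181039427 for Chrna4 and chr14:118052197-118052496 for Dct, all on the minus strand. Those of Vmn2r3 and Chrna4 lie inside the outermost annotated gene bounds, so RefSeq places their starts downstream of the first GENCODE start.
Vmn2r3: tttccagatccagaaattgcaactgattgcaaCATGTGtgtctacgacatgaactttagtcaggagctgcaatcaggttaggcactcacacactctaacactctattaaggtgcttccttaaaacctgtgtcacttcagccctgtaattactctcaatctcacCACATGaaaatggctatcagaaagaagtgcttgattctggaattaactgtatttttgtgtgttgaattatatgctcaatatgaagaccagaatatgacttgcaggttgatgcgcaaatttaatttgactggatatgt
Chrna4: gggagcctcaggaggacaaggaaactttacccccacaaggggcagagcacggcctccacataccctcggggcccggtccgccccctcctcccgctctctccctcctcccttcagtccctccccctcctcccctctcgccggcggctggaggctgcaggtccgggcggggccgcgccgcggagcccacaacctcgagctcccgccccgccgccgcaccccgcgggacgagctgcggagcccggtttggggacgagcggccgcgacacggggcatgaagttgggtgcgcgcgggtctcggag
Dct: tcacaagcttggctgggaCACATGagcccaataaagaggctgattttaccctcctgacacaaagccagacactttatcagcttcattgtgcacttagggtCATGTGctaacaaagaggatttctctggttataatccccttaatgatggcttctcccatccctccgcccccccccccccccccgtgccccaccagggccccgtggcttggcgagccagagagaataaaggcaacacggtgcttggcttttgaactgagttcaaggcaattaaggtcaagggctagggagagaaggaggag
In Dct the motif began at positions -232 and -150 from the start of transcription, and in Vmn2r3 at -218 and -87. Some 14.2% of 32851 RefSeq promoter windows of this length hold CATGTG on either strand, so the motif is common. Also searched on both strands in the promoters of all 5 genes were TGACNNNGC, the core of the antioxidant response element (in 12.4% of all windows), TGATGNAA, a core of the amino acid response element (in 3.97%), and TCACNCCAC, a sterol regulatory element (in 1.24%). None of these 3 was found in any of the 5 windows. GC content differed widely, from 38.3% in Vmn2r3 and 53.3% in Dct to 74.3% in Chrna4, against a median of 52.7% over all windows.

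Vmn2r3 was counted almost only in Cse-/- livers, and most of all in those on the cysteine-free diet. The 4 Cse-/- cysteine-free libraries held 126, 160, 171 and 8 counts, or 7.43, 11.7, 10.6 and 0.59 CPM. The 4 Cse+/- cysteine-free libraries held 0, 1, 0 and 0 counts, and both Cse+/- control diet libraries held 0. Thus 3 of the 4 deficient livers stood high, library av08 was far below them yet above every Cse+/- library, and the groups did not overlap. The sums of 465 against 1 count gave a ratio of 403 (95% exact interval 72.0 to 15965, counting error only). That 1 count was in library av02, without which the level was at least 98.0-fold higher. Against the control diet the level was at least 80.2-fold higher, both bounds with 3 counts over the group as the floor. The mean of the Cse-/- cysteine-free group was 7.59 ± 5.01 CPM (SD, n = 4), and 9.92 ± 2.23 CPM (SD, n = 3) without library av08.

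On the tryptophan-free diet Vmn2r3 was counted in all 3 Cse-/- livers, mostly at low levels. Those 3 libraries held 4, 50 and 6 counts, or 0.172, 3.11 and 0.248 CPM, against 0, 5 and 1 counts in the Cse+/- livers on the same diet, where the highest level was 0.113 CPM. The genotypes did not overlap here either, although library av15 carried 50 of the 60 counts of its group, and the group mean was 1.18 CPM with it and 0.21 CPM without it. With BSO added, the 4 Cse-/- libraries held 3, 8, 0 and 0 counts, the highest being 0.535 CPM. This range overlapped that of the tryptophan-free livers without BSO, and lay wholly below the Cse-/- cysteine-free livers, the nearest values being 0.535 and 0.59 CPM. The order of the group means was therefore Cse-/- cysteine-free, Cse-/- tryptophan-free, Cse-/- tryptophan-free with BSO, Cse+/- tryptophan-free, Cse+/- cysteine-free and Cse+/- control, and the last 4 of these groups overlapped each other at or near 0. The place of the BSO group rests on library av10, without which its mean was 0.0174 CPM in place of 0.147 CPM, below both Cse+/- groups without tryptophan (0.0533 CPM) and without cysteine (0.0176 CPM).

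Chrna4 showed the reverse picture by genotype on the cysteine-free diet and a different one by diet. The 4 Cse+/- cysteine-free libraries held 145, 165, 146 and 257 counts, or 13.1, 11.6, 11.3 and 18.2 CPM. The 4 Cse-/- libraries on that diet held 0, 0, 1 and 2 counts. Every Cse+/- library was far above every Cse-/- library, library av08 included, and the ratio of the sums of 713 and 3 counts was 274 (95% exact interval 93.4 to 1332, counting error only), or 637 without library av08, which leaves 1 count in the Cse-/- livers. The Cse+/- control diet libraries held 108 and 134 counts, or 6.42 and 9.32 CPM, below all Cse+/- cysteine-free libraries and above all others.

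On the tryptophan-free diet Chrna4 was low in both genotypes. The Cse+/- tryptophan-free libraries held 0, 9 and 12 counts, at most 0.56 CPM, so that the Cse+/- livers on the cysteine-free diet were 51.7 times higher (interval 33.6 to 84.1, counting error only), or 88.2 times without library av20. The Cse-/- tryptophan-free libraries held 15, 7 and 15 counts, or 0.647, 0.436 and 0.621 CPM, and overlapped the Cse+/- livers on that diet. With BSO they held 0, 5, 0 and 1 counts, at most 0.335 CPM, below every Cse-/- tryptophan-free library without BSO. The 4 groups at the low end were thus Cse-/- tryptophan-free, Cse+/- tryptophan-free, Cse-/- tryptophan-free with BSO and Cse-/- cysteine-free in falling order of their means, and the last 3 overlapped one another. Without library av10 the mean of the BSO group was 0.0107 CPM in place of 0.0917 CPM, below that of the Cse-/- cysteine-free group (0.0524 CPM), and the order of these 2 turned.

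**Figure D1:**
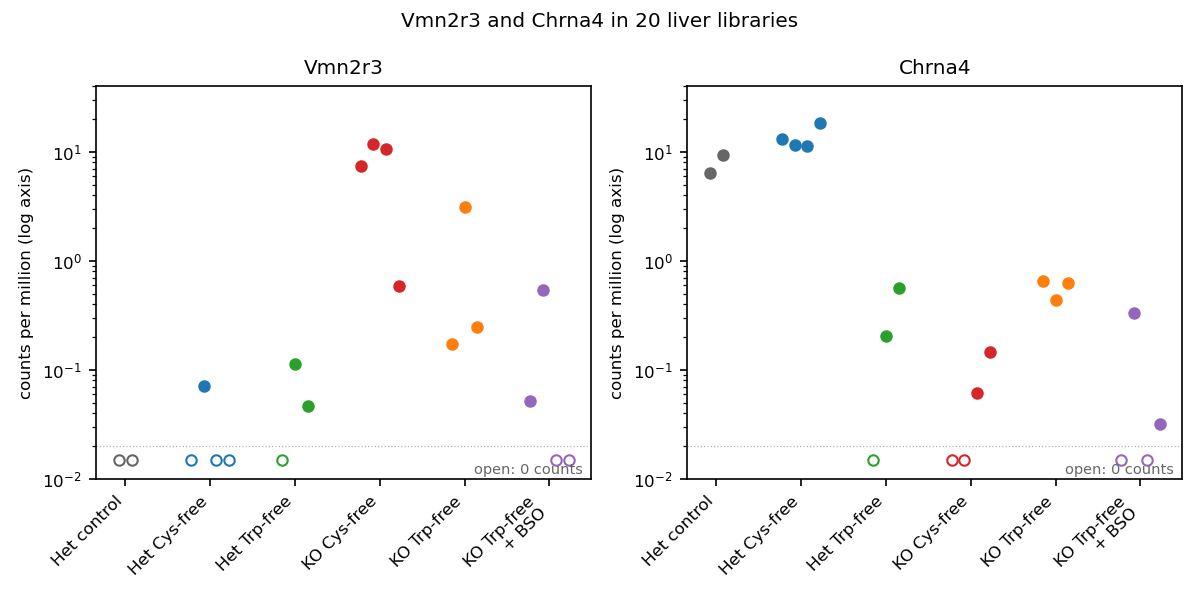
CPM of Vmn2r3 (left) and Chrna4 (right) on a log axis, 1 point per library, in the 6 groups, with Het for Cse+/- and KO for Cse-/-; open points below the dotted line are libraries with 0 counts. Vmn2r3 is highest in 3 KO cysteine-free libraries at 7.43 to 11.7 CPM, and Chrna4 is above 6 CPM in all 6 Het libraries on the control and cysteine-free diets and at most 0.647 CPM in all the others.

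Dct was counted in every library and was lowest in Cse-/- livers on the cysteine-free diet. There it stood at 0.531, 0.659, 0.434 and 2.65 CPM, from 9, 9, 7 and 36 counts, the last being library av08. The Cse+/- livers on that diet lay at 5.49, 3.74, 2.56 and 2.83 CPM. Of the 4 Cse-/- libraries 3 were below all Cse+/- libraries, but the groups overlapped through library av08. The group means were 1.07 ± 1.06 against 3.66 ± 1.32 CPM (SD, n = 4 each), and the Cse-/- mean without library av08 was 0.541 ± 0.113 CPM (SD, n = 3).

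In the remaining groups Dct differed less. It measured 6.36 and 6.19 CPM on the control diet, 3.48, 4.96 and 2.52 CPM in Cse+/- tryptophan-free livers and 8.15, 5.42 and 2.40 CPM in Cse-/- tryptophan-free livers. With BSO the Cse-/- tryptophan-free livers lay between 3.43 and 4.86 CPM. These groups all overlapped one another, apart from the control diet pair, which lay above both the Cse+/- tryptophan-free and the BSO livers and above all Cse+/- cysteine-free livers. The BSO livers did not overlap the Cse-/- cysteine-free livers.

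Dlec1 had its highest group means in livers on the tryptophan-free diet without BSO. The Cse-/- livers on it measured 13.1, 16.4 and 6.46 CPM, from 304, 263 and 156 counts, and the Cse+/- livers 2.77, 7.33 and 3.92 CPM. The Cse-/- livers on the cysteine-free diet stood at 2.95, 2.05, 1.18 and 0.811 CPM and the Cse+/- livers at 0.36, 1.76, 1.17 and 2.05 CPM. Both genotypes were therefore higher without tryptophan than without cysteine, with no overlap in either, and the genotypes overlapped within each diet. With BSO the Cse-/- tryptophan-free livers lay at 1.60 to 3.29 CPM, wholly below those without it, and the control diet livers at 1.49 and 3.62 CPM. Library av01, with 4 counts, was the lowest of all.

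Fbf1 was the member with the highest counts, between 104 and 6115 in a library. The Cse+/- livers measured 139, 138 and 75.4 CPM on the tryptophan-free diet, 69.4 and 76.0 CPM on the control diet, and 9.36, 19.0, 15.2 and 20.1 CPM on the cysteine-free diet. In Cse+/- livers the cysteine-free diet thus went with less Fbf1 than either other diet, without overlap. The Cse-/- livers without cysteine stood at 31.8, 36.6, 10.8 and 16.4 CPM and overlapped the Cse+/- ones.

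The Cse-/- livers on the tryptophan-free diet were the most scattered for Fbf1, at 19.7, 143 and 46.8 CPM. Their mean of 69.7 ± 64.6 CPM (SD, n = 3) rests on library av15, and without it was 33.2 CPM. The same library was the highest of its group for Vmn2r3 and Dlec1. With BSO the values lay close together, at 15.3, 14.6, 13.9 and 10.6 CPM, all below the livers without BSO.

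**Figure D2:**
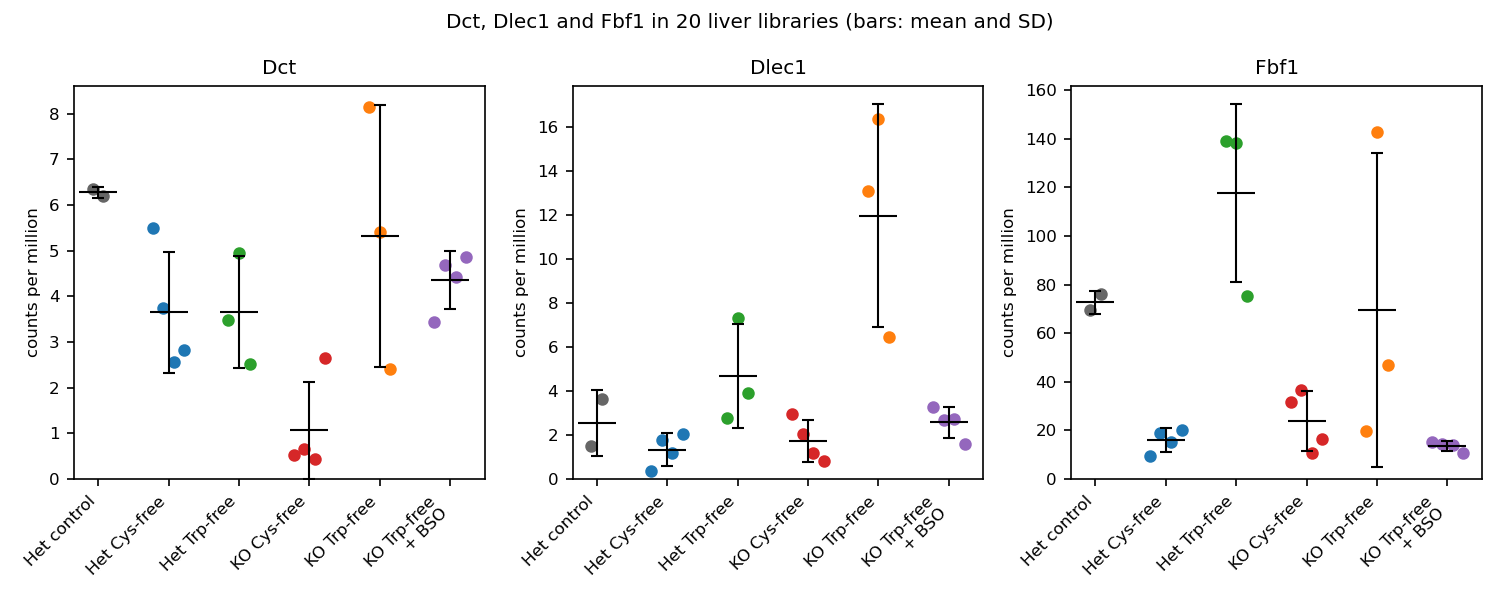
CPM of Dct, Dlec1 and Fbf1 on linear axes from 0, 1 point per library, with the mean and SD of each of the 6 groups. Dct is lowest in 3 of the 4 KO cysteine-free libraries, Dlec1 has its highest mean in the KO tryptophan-free group, whose lowest library (6.46 CPM) lies below the highest Het tryptophan-free one (7.33 CPM), and Fbf1 spreads from 19.7 to 143 CPM within the KO tryptophan-free group.

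Counted by overlap, the groups of Cse-/- and Cse+/- livers without cysteine were separate for 2 of the 5 genes (Vmn2r3 and Chrna4), as they were for 23.2% of all 14759 genes. The other comparisons follow in the same form, and since the members were chosen on these differences the counts are read no further. Cse-/- and Cse+/- livers without tryptophan were separate for 1 gene (Vmn2r3), against 19.6% of all genes. Cse-/- livers without cysteine and without tryptophan were separate for 2 (Chrna4 and Dlec1; 20% of all genes), and Cse+/- livers on these diets for 3 (Chrna4, Dlec1 and Fbf1; 19.0%). Addition of BSO to the tryptophan-free diet separated the groups for 3 (Chrna4, Dlec1 and Fbf1; 12.6%), and the BSO livers were separate from Cse-/- cysteine-free livers for 2 (Vmn2r3 and Dct; 12.6%). Several of these comparisons share groups.

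Only Vmn2r3 and Chrna4 had libraries with 0 counts, so a near on-off description held for those 2, while Dct, Dlec1 and Fbf1 were present in every liver at graded levels. All 5 varied more among livers of a group than most genes of like level. The SD within groups on the log2 CPM scale was 1.33 for Vmn2r3, 0.79 for Chrna4, 0.67 for Dct, 0.76 for Dlec1 and 0.73 for Fbf1. Among the 500 genes nearest in mean level to each, between 93.0% (around Chrna4) and 99.0% (around Fbf1) had a smaller one.

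Whether the reads could come from another gene was looked at through shared sequence. Of the 17869 different stretches of 61 bases, the read length, in the transcripts of Vmn2r3, 2.13% also occurred in other genes, in 51 of them, with most shared with its neighbour Vmn2r2, which had 1 count in all 20 libraries together. Chrna4 and Fbf1 shared none of theirs, and Dct shared 1.17% with 52 genes. Dlec1 shared 2.39%, all with Acaa1b, a peroxisomal thiolase gene of fatty acid oxidation on the opposite strand whose end overlaps the end of Dlec1 by 224 exonic bases (chr9:119148023-119148246). The kit does not mark strand, so reads in that overlap cannot be told apart. Acaa1b is a far more counted gene, at 295 to 1099 CPM. The counts of Dlec1 ranged from 0.0849% to 2.29% of those of Acaa1b, and the Cse-/- tryptophan-free livers were highest on this measure, at 1.16% to 2.29%. Reads inside and outside the overlap were not counted apart, so the part of Acaa1b in the Dlec1 values was not tested.

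The 5 nearest annotated genes on each side of each member were then compared, 50 in all, of which 47 were in the table and 20 had enough counts to test. For Vmn2r3 none of the 10 could be tested. These are vomeronasal receptor genes, their pseudogenes and small RNAs, and the highest of them, Gm5139 and Vmn2r1, had 7 and 11 counts over all 20 libraries. The gap to the adjacent annotated genes was 43538 bases to the pseudogene Gm18294 and 28698 bases to the small nucleolar RNA gene Gm23897, both at 0 counts in every library. Vmn2r3 was thus the one gene of its neighbourhood with more than 11 counts.

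Over the other 4 members, edgeR's quasi-likelihood test with Benjamini-Hochberg adjustment called 3 of the 20 neighbours between Cse-/- and Cse+/- livers without cysteine, where 23.8% of all genes were called, 1 higher and 2 lower. It called 1 between the genotypes without tryptophan (2.64% of all genes) and 2 between the cysteine-free and tryptophan-free diets in Cse+/- livers (8.04%). None was called between these diets in Cse-/- livers (10.4% of all genes; 4 neighbours at an unadjusted p under 0.05), on addition of BSO (0.793%; 5) or between BSO and Cse-/- cysteine-free livers (2.75%; 1). DESeq2 also called none in these last 3 comparisons. In each of the 6 comparisons the median log2 difference of the 20 neighbours lay between -0.25 and 0.01, and that over all genes tested between -0.01 and 0.01.

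Next to Chrna4, Col20a1, a collagen gene whose end lies 17 bases from that of Chrna4, did not pass the test in any comparison, with a log2 difference of 0.17 (SE 0.22, adjusted p = 0.62) between the genotypes without cysteine, and stood at 2.23 ± 0.325 CPM in Cse+/- and 2.52 ± 0.537 CPM in Cse-/- livers (SD, n = 4 each). Arfgap1, a GTPase-activating protein of the Golgi 3 places away, rose in Cse-/- livers without cysteine by 0.39 (SE 0.10, adjusted p = 0.008), opposite in sign to Chrna4.

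Beside Dct, Gpc6, a glypican gene and the nearest protein-coding gene, named after its values were seen, differed by -0.41 (SE 0.24, adjusted p = 0.28) between the cysteine-free and tryptophan-free diets in Cse-/- livers. The adjacent microRNA gene Mir6239 had 0 counts, and the antisense gene 4930435M08Rik inside Dct was not analysed here. The lincRNA gene Gm26773, also named after its values were seen, rose by 0.85 (SE 0.24, adjusted p = 0.035) in Cse+/- livers without cysteine against without tryptophan. That call was lost in 8 of 12 other settings, where its adjusted p ran from 0.026 to 0.13.

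For Dlec1, the adjacent Plcd1, a phospholipase C gene, differed by -1.24 (SE 0.43, adjusted p = 0.071) between Cse-/- livers without cysteine and without tryptophan, the same direction as Dlec1. The overlapping Acaa1b fell by 0.82 (SE 0.24, adjusted p = 0.02) between Cse+/- livers, at 746 ± 276 CPM, and Cse-/- livers, at 423 ± 138 CPM, without cysteine (SD, n = 4 each). The groups overlapped for Dlec1 there. This call too was lost in 5 of 13 other settings (adjusted p from 0.0017 to 0.092), among them those without library av04, av06, av07 or av08 and the fit of the compared groups only.

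Next to Fbf1, Mrpl38, a mitochondrial ribosomal protein gene 3417 bases away on the same strand, fell by 1.04 (SE 0.14, adjusted p = 5.2e-04) in Cse+/- livers without cysteine against without tryptophan, with means of 68.7 ± 7.93 CPM (SD, n = 4) and 141 ± 23.3 CPM (SD, n = 3). It was called in all 12 other settings. This is the comparison in which Fbf1 differed most. Counts of Fbf1 were 16.1% to 27.9% of those of Mrpl38 in the former livers and 61.3% to 105% in the latter. Trim47, a ubiquitin ligase gene named after its values were seen, fell in Cse-/- livers by 0.50 without cysteine (SE 0.17, adjusted p = 0.037) and by 0.73 without tryptophan (SE 0.18, adjusted p = 0.039). The first call was lost in 7 of 13 other settings and the second in 6 of 11.

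**Figure D3:**
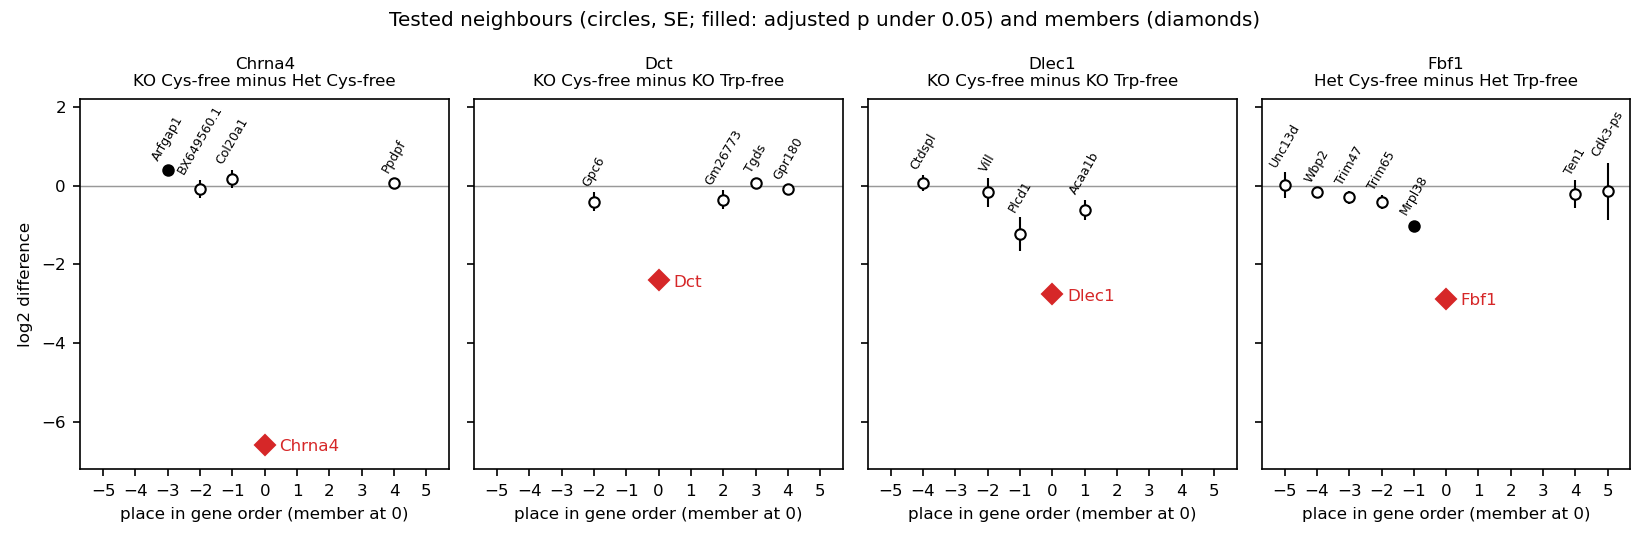
Log2 difference of 19 of the 20 tested neighbours (circles, with the SE, filled where the adjusted p is under 0.05) by its place in gene order from the member, in the comparison in which the member (diamond) differed most; Vmn2r3 had no testable neighbour. Chrna4 stands at -6.58 between neighbours near 0, while Mrpl38 at -1.04 lies on the same side as Fbf1.

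The other genes of each member's pathway were counted next, from lists in which the members themselves were left out. For the counts over the 6 comparisons that follow, 32.5% of all genes tested were called in at least 1 of them. Of 500 other genes and pseudogenes named as vomeronasal receptors, 460 had 0 counts in every library and none passed the filter, and the highest count of any in a library was 14. Vmn2r3, with up to 171, was alone among them in reaching that level. Of 10 genes of vomeronasal or olfactory signalling, Trpc2, the channel that vomeronasal neurons need, and Gng13 were at 0 in all libraries, and the olfactory marker gene Omp had 46 counts in all. The 5 tested were the G protein subunits Gnao1, Gnai2 and Gnal, the chloride channel Ano1 and the adenylyl cyclase Adcy3. None of them was called in any of the 6 comparisons by edgeR or DESeq2, with 4 of 30 gene and comparison pairs at an unadjusted p under 0.05.

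Of 15 other nicotinic receptor subunits 3 were tested. Chrnb2, the usual partner of Chrna4, stood at 4.95 ± 1.79 CPM in Cse+/- and 6.50 ± 1.35 CPM in Cse-/- livers without cysteine (SD, n = 4 each), a log2 difference of 0.41 (SE 0.28, adjusted p = 0.31). Chrna2 differed by -0.79 (SE 0.38, adjusted p = 0.14) and Chrnb1 by -0.05 (SE 0.31, adjusted p = 0.93). None was called in any comparison by edgeR or DESeq2, with 1 of 18 pairs at an unadjusted p under 0.05. Of 9 genes that handle acetylcholine or help to assemble its receptors, the transporters Slc18a3 and Slc5a7 were at 0 throughout, and the cholinesterases Ache and Bche, Lynx1 and Ric3 were tested, with none called by either tool and 3 of 24 pairs at an unadjusted p under 0.05.

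Of 17 other pigment genes, Tyr and Tyrp1, the tyrosinase family members next to Dct in melanin synthesis, and Oca2 and Mc1r were at 0 in every library. Mitf, which drives pigment cell genes, was present at 2.21 to 5.61 CPM, with a log2 difference of 0.33 (SE 0.24, adjusted p = 0.34) between Cse-/- and Cse+/- livers without cysteine. Of the 9 tested, 2 were called, both lower in Cse-/- livers in that comparison, where 23.8% of all genes were called. Rab38, a small GTPase of melanosome biogenesis, fell by 2.41 (SE 0.61, adjusted p = 0.0068), with 0.649 ± 0.165 CPM in Cse+/- and 0.122 ± 0.125 CPM in Cse-/- livers (SD, n = 4 each). No library outside the Cse+/- cysteine-free group exceeded 0.497 CPM, so Rab38 passed the filter only through the group in which it was high. Only 7 of 13 other settings gave it a value. It was called in those, which is no independent support. Kit, a receptor tyrosine kinase, fell by 0.42 (SE 0.14, adjusted p = 0.034), a call lost in 6 of 13 other settings. DESeq2 made 1 call over the list. The median log2 difference of the 9 was -0.14, against -0.01 over all genes. The tautomerases Mif and Ddt, which act on a dopachrome of the other handedness, were not called by edgeR, while DESeq2 made 1 call for them over the 6 comparisons, and 1 of 12 pairs had an unadjusted p under 0.05.

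All 12 other genes of the distal appendages and the centriole cap were tested, so Fbf1 lies in a set that these livers express throughout. Cep89, a distal appendage protein, rose by 0.48 (SE 0.14, adjusted p = 0.019) and Ofd1 rose by 0.57 (SE 0.18, adjusted p = 0.026) in Cse-/- against Cse+/- livers without cysteine. Ofd1 also rose in Cse-/- livers without cysteine against without tryptophan by 0.69 (SE 0.19, adjusted p = 0.026). Ccp110, which caps centrioles, fell by 0.75 (SE 0.18, adjusted p = 0.019) in Cse+/- livers without cysteine against without tryptophan, a comparison in which Fbf1 was also lower. Called in any comparison were thus 3 of 12, against the 32.5% of all genes. These 4 calls were lost in 1 of 13, 4 of 13, 6 of 12 and 4 of 12 other settings. The medians of the list in the 6 comparisons lay between -0.04 and 0.11. Of 15 motile cilium genes in the count table, 4 were tested and Cfap43 alone was called. It was 1.07 higher (SE 0.33, adjusted p = 0.042) in Cse-/- livers without cysteine than without tryptophan, the opposite sign to Dlec1. That call was lost in 5 of 12 other settings. In that comparison 10.4% of all genes were called.

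Markers of other tissues were read to see whether foreign RNA moved with the members. Prm1, Prm2, Tnp1, Tnp2, Ldhc, Acrv1 and Odf1, markers of testis germ cells, summed to at most 0.0777 CPM in any library. The 6 melanocyte markers summed to 0.414 to 1.20 CPM, nearly all of it Pmel, and the ranges of all 6 groups overlapped. Tyr, Tyrp1 and Oca2 were at 0 in the libraries in which Dct reached 8.15 CPM. Of 9 neuronal markers, Snap25 and Gap43 were at 0 in every library, and 2 (Rbfox3 and Syt1) passed the filter. Their sum was 21.7 to 30.0 CPM in Cse+/- livers without cysteine and 13.3 to 19.9 CPM in the other 5 groups, nearly all of it Syt1, so this sum was highest in the 4 livers with the highest Chrna4 but lay at 16.1 to 18.2 CPM in the 2 control diet livers, where Chrna4 was 6.42 and 9.32 CPM. Its part in the Chrna4 result was not tested. The 6 vomeronasal or olfactory markers summed to 3.01 to 5.99 CPM, nearly all of it Gnal and Ncam2, with 3.01 to 5.46 CPM in Cse-/- and 3.50 to 5.99 CPM in Cse+/- livers without cysteine. The 6 markers of multiciliated cells summed to 2.01 to 3.09 CPM, mostly Ccdc39, with Mcidas at 0.

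Of the liver's own cells, the 7 hepatocyte markers summed to 37995 to 63305 CPM in Cse-/- livers without cysteine and to 83252 to 106387 CPM in Cse+/- livers on that diet. Most of this sum was Alb, at 25487 to 87903 CPM over all libraries. The 6 cholangiocyte markers summed to 16.4 to 28.8 CPM against 46.1 to 57.9 CPM. Most of that was Spp1, at 11.8 to 68.8 CPM over all libraries. Both sums were therefore lower in the livers that were high in Vmn2r3 and low in Chrna4 and Dct. They speak mainly for Alb and Spp1 and little for the other markers. The part of these sums in the differences of the members was not tested. Stellate (177 to 215 against 211 to 251 CPM), endothelial and Kupffer cell lists overlapped between these groups.

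**Figure D4:**
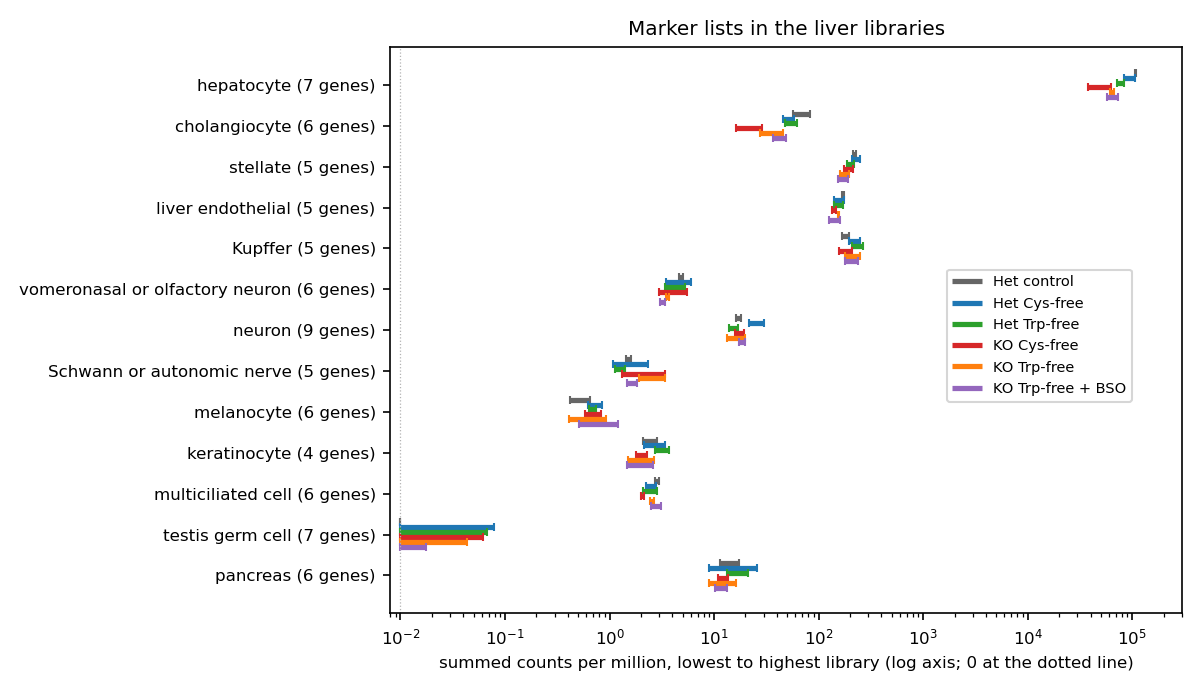
Range over the libraries of each group of the summed CPM of 13 marker lists, on a log axis. Hepatocyte markers sum to at least 37995 CPM in every library, whereas melanocyte markers stay at or below 1.20 CPM and testis germ cell markers at or below 0.0777 CPM.

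For each member the 3 genes with the most similar log2 CPM over all 20 libraries were found among genes with a mean of at least 1 CPM. Libraries of a group share diet and genotype, so the coefficients are a description, and the value after removal of group means is given beside each. Vmn2r3 was nearest to Cox6a2, a subunit of cytochrome c oxidase known from muscle (Pearson r = 0.94, Spearman rho = 0.77, within groups r = 0.88), to App, the amyloid precursor protein gene (0.94, 0.68 and 0.94), and to Pck2, the mitochondrial phosphoenolpyruvate carboxykinase gene (0.93, 0.79 and 0.90). Libraries av08 and av15, at a log2 CPM of -0.54 and 1.68 for Vmn2r3, lay far from the others of their groups. The within-group coefficients of Vmn2r3 lean on them and were not computed without them. Cox6a2 lay between 0.59 and 7.11 CPM in Cse-/- and between 0 and 0.155 CPM in Cse+/- livers without cysteine, the lowest Cse-/- value being that of library av08. Pck2 lay between 13.6 and 71.4 CPM and between 4.52 and 6.27 CPM in the same groups.

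Chrna4 was nearest to 2 genes of cholesterol synthesis, Pmvk, phosphomevalonate kinase (r = 0.96, rho = 0.93, within groups r = 0.78), and Nsdhl, a sterol dehydrogenase (0.91, 0.93 and 0.66), and to Gm3571 (0.91, 0.96 and 0.82). Pmvk lay between 41.8 and 54.2 CPM in Cse+/- and between 10.7 and 19.4 CPM in Cse-/- livers without cysteine, and Nsdhl stood at 53.3 ± 3.91 and 10.1 ± 4.16 CPM (SD, n = 4 each). Dct was nearest to 3 genes of hepatocytes, Apof, an apolipoprotein (r = 0.91, rho = 0.81, within groups r = 0.75), Akr1c20, an aldo-keto reductase (0.90, 0.72 and 0.76), and Slc27a5, the bile acid-CoA ligase (0.89, 0.60 and 0.73).

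Dlec1 was nearest to the mitochondrial genes Mrpl45 (r = 0.84, rho = 0.83, within groups r = 0.67) and Cox10 (0.84, 0.89 and 0.53) and to Chkb, a choline kinase (0.82, 0.79 and 0.76). Fbf1 was nearest to Wrnip1, a replication fork protein (r = 0.89, rho = 0.80, within groups r = 0.72), to its neighbour Mrpl38 (0.89, 0.82 and 0.81) and to Synpo, an actin-binding protein (0.88, 0.83 and 0.57). Among the members themselves r was -0.75 for Vmn2r3 and Dct (rho = -0.42, within groups r = -0.42) and 0.59 for Dlec1 and Fbf1 (rho = 0.66, within groups r = 0.52). By rho Vmn2r3 was as far from Chrna4 (-0.44) as from Dct. In r the other 8 pairs lay between -0.47 and 0.38 (within groups -0.34 to 0.53, the highest being Vmn2r3 with Fbf1, at 0.01 overall).

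**Figure D5:**
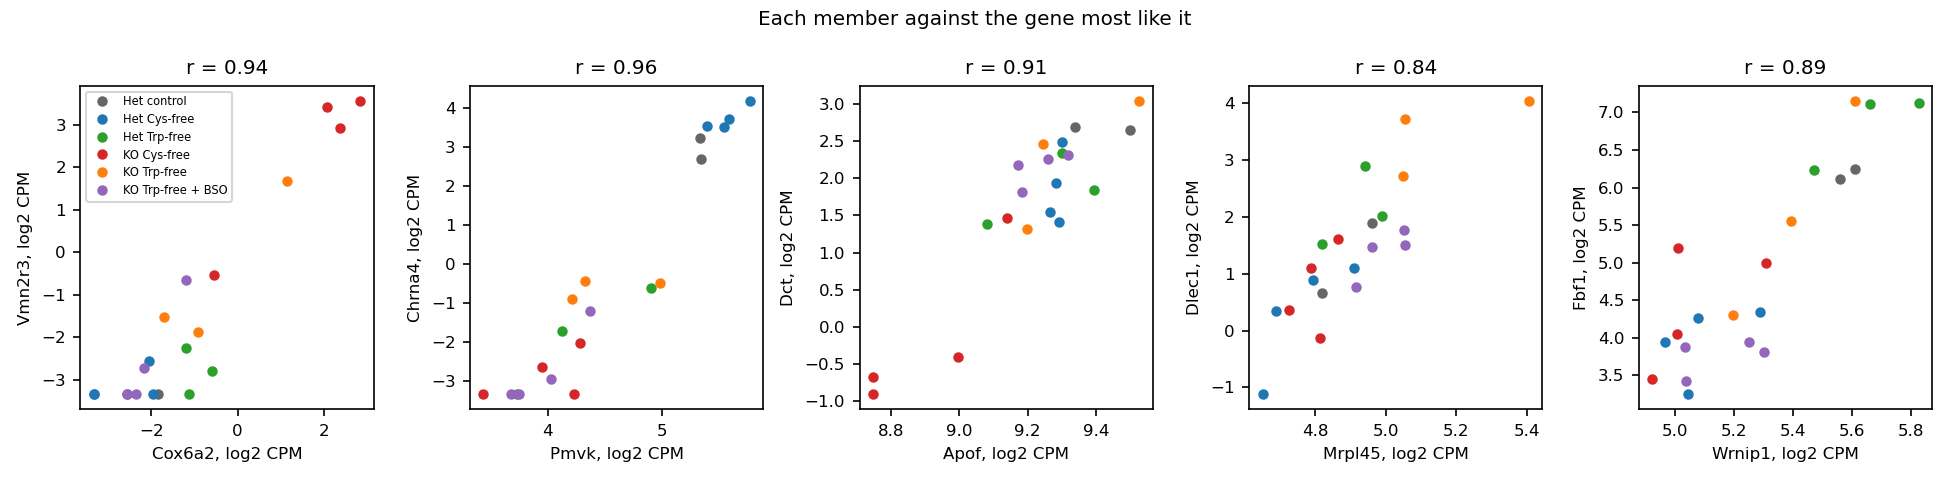
Log2 CPM of each member against that of the gene most like it over 20 libraries, coloured by group, with Pearson r above each panel. The coefficients run from 0.84 (Dlec1) to 0.96 (Chrna4); for Chrna4 the 6 Het control and cysteine-free libraries sit apart from all the others, and for Dct 3 KO cysteine-free libraries do.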

How the data were processed

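Poly(A) RNA of mouse liver was sequenced as paired reads of 61 bases after trizol extraction, with a library kit that does not mark strand. Per the labels and the study's methods, the authors aligned reads with HISAT2 2.1.0 to GRCm38 and deposited counts per gene from HTSeq 0.11.0. The annotation release and the strand setting of the counting are not given in the sources used here. Of 21 columns 20 belong to labelled groups, and 1 was not used. Symbols came from GENCODE M21 for 45229 of 46078 genes. The study states that experimental and control mice were littermates where this could be arranged, but the labels name no litter. Nothing states that libraries of a group came from separate litters or days, so p-values measure the spread between these livers.

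Deposited counts were fitted with edgeR 4.0.16 (R 4.3.3), all 6 groups in 1 model, TMM scaling, filterByExpr (minimum count 10, minimum total 15), quasi-likelihood test and Benjamini-Hochberg adjustment at 0.05. CPM uses the TMM-scaled totals, and log2 CPM a prior count of 2. Another scaling (RLE) moved the median gene by at most 0.008 on the log2 scale. On simulated data for Cse-/- against Cse+/- livers without cysteine, with 13255 genes, 172 of 200 changed genes were recovered with 12 false calls. Ratios of low counts have exact conditional 95% intervals. No pair of libraries of a group agreed within sampling noise. The members and lists were chosen with earlier results of these data known. Genes named are the members, their adjacent, overlapping or called neighbours, at most 4 called genes per list, and the 3 genes most like each member. DESeq2 1.42.0, RLE scaling, other filters, a fit of the compared groups only, other prior counts, thinning and leaving out each library were tried. The values of 2 neighbouring genes are not reported here.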

Additional observations from a re-analysis of the deposited data

Results flagged for a closer look

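Groups of 4 livers were screened for a library whose gap to the nearest other exceeded 0.829 of the group's range. This covered 30 groups of the members, Cth and their adjacent or overlapping tested neighbours. Chance alone marks about 1 in 20 where values are normally distributed. That rate does not hold for groups with counts near 0, as in Vmn2r3 and Chrna4. The screen marked 7 values. Dct stood at 2.65 CPM in library av08 of the Cse-/- cysteine-free group, against 0.434 to 0.659 CPM in the other 3. In the same library Cth measured 13.3 CPM, against 6.37 to 7.03 CPM. Cth in library av01 of the Cse+/- cysteine-free group was at 332 CPM, against 121 to 132 CPM. Library av10 of the BSO group was marked both for Vmn2r3, at 0.535 CPM against at most 0.0523 CPM, and for Chrna4, at 0.335 CPM against at most 0.032 CPM, from 8 and 5 counts. Vmn2r3 in library av02 of the Cse+/- cysteine-free group, at 0.0705 CPM, was a single count beside 3 libraries at 0, which the screen marks in any case. Plcd1, next to Dlec1, was low in library av11 of the BSO group, at 0.421 CPM against 0.941 to 1.00 CPM, from 6 counts.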

How the results depend on the processing

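Genes called between Cse-/- and Cse+/- livers without cysteine stayed within 1.5 times of 3515 in all settings (2929 to 3663, and 2664 without av02 to 3500 without av08). A fit of the compared groups only gave 83 genes between the genotypes without tryptophan (389 in the full fit), 521 between the cysteine-free and tryptophan-free diets in Cse-/- livers (1535), 580 between them in Cse+/- livers (1186) and 75 on addition of BSO (117). DESeq2 gave 720 between the genotypes without tryptophan, 352 on addition of BSO and 876 between BSO and Cse-/- cysteine-free livers (406), and no filter on low counts gave 287 on addition of BSO. With each library left out in turn, these counts ran from 109 (without av15) to 421 (av14) between the genotypes without tryptophan, from 683 (av14) to 1855 (av08) between the diets in Cse-/- livers, from 597 (av02) to 1329 (av04) between them in Cse+/- livers, from 36 (av09) to 172 (av10) on addition of BSO, and from 52 (av06) to 1027 (av08) between BSO and Cse-/- cysteine-free livers. The causes were not tested.

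For the members, the log2 difference between the genotypes without cysteine was 5.48 for Vmn2r3 and -6.58 for Chrna4. A prior count of 0.5 gave 7.14 and -7.92, and thinning all libraries to the shallowest gave 4.82 and -5.91. With each library left out, Vmn2r3 ran from 5.08 to 6.44, Chrna4 from -6.85 to -6.41, Dct from -2.50 to -1.71 and Fbf1 from 0.22 to 0.80. Dlec1 ran from -0.05 without av01 to 0.72 without av08, so its sign rested on library av01. Of the 20 tested neighbours 5 were called in any comparison (32.5% of all genes were), against 4 with DESeq2, 4 of 34 with no filter and 5 of 13 among the nearest 3 on each side. No paired analysis was possible because the columns of the count table carry no replicate numbers and the labels name no litters.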
